A study of Mus musculus with 2 samples.

Results

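The 36 genes described here encode the machinery of DNA replication and of S phase, from the licensing factors Cdc6 and Cdt1 to the nucleotide enzymes, the histone gene Hist1h2ap and the E cyclins. They were followed in single-cell transcriptomes of mouse tumours. All 36 were listed in the count tables of both libraries, among 9127 gene symbols common to the tables. The members were listed by name, with earlier results of these data known. One library came from wild-type (WT) C57BL/6 mice and the other from C57BL/6 mice of genotype Cdh5-cre Myct1 fl/fl, in which the promoter of Cdh5, a cadherin of endothelial cells, drives Cre against a floxed Myct1 allele. That library is called the Myct1 knockout below; its sample label spells the driver Cdh-cre. Tumours of 4 mice were pooled for each library, and no label gives the age of the mice, the tumour model, any sorting or which Myct1 exon is floxed. Each genotype had 1 library, so cells are not replicates, no test was made, and genotype cannot be told apart from any other difference between the 2 libraries. All intervals are exact 95% intervals and cover counting error only.

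The tables held 10880 WT and 10700 knockout cell barcodes with 115519153 and 145331950 UMIs (molecules counted once by their identifier), and 218 barcode sequences occurred in both. After filtering, 7886 WT and 8069 knockout cells were kept. Marker genes then placed 516 WT and 287 knockout cells in the endothelial class, 2745 and 128 in the fibroblast class, 91 and 23 in the mural class (pericytes and smooth muscle), and 3450 and 6257 in a class positive for the keratins Krt8 and Krt18. Both samples are labelled endothelial cells, yet the endothelial class made up 6.54% of WT and 3.56% of knockout cells. Its summed level of 15 endothelial markers was 137 UMIs per 10000 in WT and 101 in the knockout. Myct1 itself gave 927 UMIs in WT endothelial cells and was found in 381 of 516 of them (73.8%, 69.8 to 77.6%). The knockout table does not list it, and genes on that list had 4 or more UMIs in some barcode, so its level there is not known beyond that limit.

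A cell that prepares to divide loads the Mcm2 to Mcm7 helicase onto replication origins in G1 with the help of Cdc6 and Cdt1. In S phase the Gins complex activates the helicase, primase and DNA polymerases copy both strands, and the sliding clamp Pcna, placed by the clamp loader Rfc, holds the polymerases on DNA. Many of these genes are switched on together at the G1 to S transition by transcription factors of the E2F family, whereas genes of mitosis peak later and are known for CCAAT and CHR elements in their promoters. In adult vessels most endothelial cells are at rest, and tumours are a setting in which some of them divide.

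Because the members are known for shared E2F control, their promoters were searched for 3 forms of the E2F site, TTTCCCGC, TTTGGCGC and TTTCGCGC, on both strands of RefSeq windows from 250 bases before to 50 bases after a start (GRCm38.p6). Windows were found for 32 of the 36 members, the exceptions being Mcm4, Gins2, Rfc2 and Ccne2. Of these 32 members, 13 held the letters (40.6%), compared with 573 of 27018 genes of the whole table (2.12%). In the 27 genes of a mitosis list with a window, 1 held them (3.70%). The order was the other way round for the letters TTTGAA, the core of the CHR element, which were present in 5 of 32 members (15.6%), 20 of 27 mitosis genes (74.1%) and 20.2% of all genes. CCAAT was present in 59.4% of the members, 85.2% of the mitosis genes and 41.1% of all genes. Forms of the E2F letters can overlap each other in palindromes, and a match describes letters, not binding. The 9 windows shown next are those of the members with a match that begins upstream of the RefSeq start, at the match farthest upstream, with 30 bases each in the direction of transcription and the E2F letters, or their reverse complement, in capitals. By GENCODE M21 gene bounds, the windows of Mcm5 and Mcm6 lie upstream of the gene and the other 7 inside it. In the remaining 4 members with the letters (Cdt1, Mcm3, Pold1 and Lig1) the matches lie after the start.
Cdc6, chr11:98908002-98908031, plus strand: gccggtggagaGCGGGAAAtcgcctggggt
Mcm5, chr8:75109345-75109374, plus strand: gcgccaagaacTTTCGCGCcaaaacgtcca
Mcm6, chr1:128359797-128359826, minus strand: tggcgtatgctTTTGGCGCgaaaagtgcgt
Mcm7, chr5:138172030-138172059, minus strand: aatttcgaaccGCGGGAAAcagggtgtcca
2810417H13Rik, chr9:65890307-65890336, plus strand: gcttggagcgcGCGGGAAAgagacccattt
Rfc3, chr5:151651200-151651229, minus strand: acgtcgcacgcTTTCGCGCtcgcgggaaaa
Uhrf1, chr17:56304117-56304146, plus strand: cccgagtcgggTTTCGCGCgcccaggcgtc
Dnmt1, chr9:20952824-20952853, minus strand: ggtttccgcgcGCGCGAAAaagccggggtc
Hells, chr19:38930917-38930946, plus strand: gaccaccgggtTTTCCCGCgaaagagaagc

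The S-phase genes were higher in the endothelial cells of the knockout library. Summed over the 36 genes, the level rose from 802 CPM (UMIs of the gene per 1000000 UMIs of the endothelial sum) in WT to 1293 CPM in the knockout, a log2 ratio of 0.69 (0.62 to 0.76). Counting a gene as different at a ratio of at least 1.5-fold with an interval that excludes no difference, 14 of the 36 were higher and 0 were lower. Over all 8102 genes with at least 20 UMIs in the endothelial sums, 10.2% were higher and 34.8% were lower. The members' median log2 ratio was 0.51, and that of all genes was -0.35. With the sums scaled by the trimmed mean of ratios (TMM), which moves all ratios up by 0.31, 24 members were higher and 0 lower, beside 1716 and 1390 of all genes. Among cells without a UMI of the mitosis genes Mki67, Top2a, Cdk1, Ccnb1 or Birc5, 1 member was higher and 2 were lower of 24 with enough UMIs. Of all genes, 670 were higher and 2432 lower in these cells. The members' summed log2 ratio was then -0.010 (-0.14 to 0.12), and the median was -0.033 for the members and -0.38 for all genes. The higher member was Dut (0.78), and the lower members were Pcna (-0.72) and Dnmt1 (-1.28), named here after their values were seen.

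**Figure D1:**
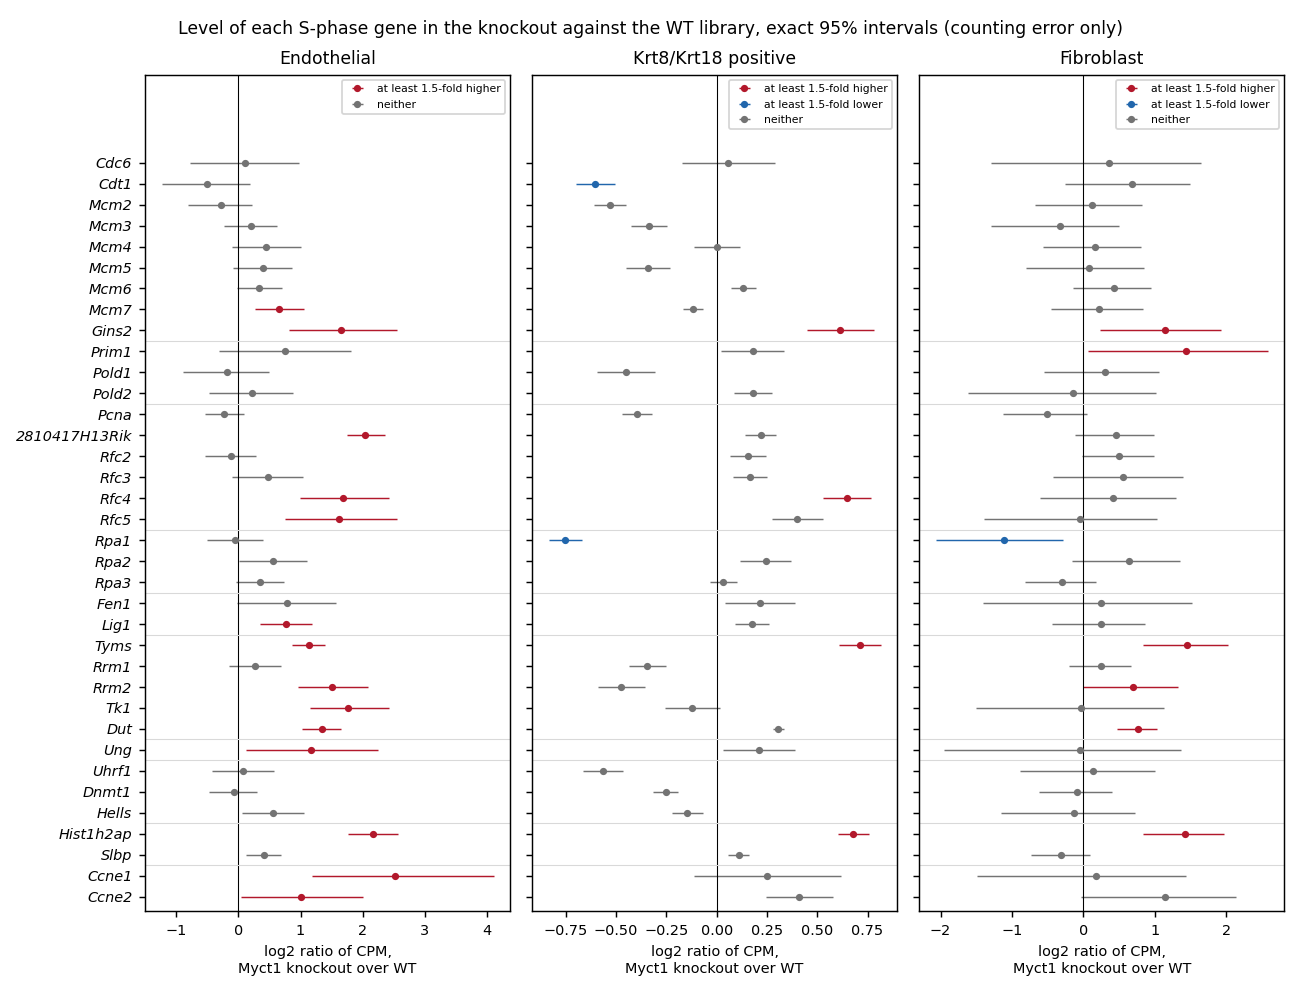
Log2 ratio of the CPM of each S-phase gene, Myct1 knockout over WT, in endothelial, Krt8/Krt18 positive and fibroblast cells, with exact 95% intervals for counting error; the horizontal scales differ between panels, and grey lines separate functional groups. In endothelial cells 14 genes are marked higher and 0 lower, in Krt8/Krt18 positive cells 4 and 2, and in fibroblasts 6 and 1.

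Among the licensing and helicase genes, Gins2 and Mcm7 were the 2 of 9 that were higher in knockout endothelium. Gins2, a subunit of the complex that activates the helicase, gave 18 UMIs (4.86 CPM) in WT and 38 UMIs (15.3 CPM) in the knockout, a log2 ratio of 1.66 (0.81 to 2.55). Mcm7 stood at 28.9 CPM in WT and 45.5 CPM in the knockout, with a log2 ratio of 0.66 (0.26 to 1.05). The other helicase subunits lay between a log2 ratio of -0.29 for Mcm2 and 0.45 for Mcm4, each with an interval that included 0. Cdt1, the licensing factor that is destroyed once S phase begins, gave 14.9 CPM in WT and 10.5 CPM in the knockout (log2 ratio -0.50, -1.24 to 0.19). Cdc6, its partner, gave 7.83 and 8.46 CPM (0.11, -0.77 to 0.97). The licensing factors thus did not share the ratio of Gins2, and their counts of 21 to 55 UMIs per sum leave wide intervals.

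In the clamp group, the largest ratio belonged to 2810417H13Rik, now named Pclaf, which encodes a small protein that binds Pcna at the fork. The gene lies on the plus strand of chromosome 9, from 65890237 to 65903266 (GENCODE M21, GRCm38). Its endothelial level was 32.9 CPM in WT and 136 CPM in the knockout, 4.12-fold higher (log2 ratio 2.04, 1.74 to 2.35). The clamp loader subunits Rfc4 and Rfc5 were higher too, Rfc4 at 7.02 CPM in WT and 22.6 CPM in the knockout (1.68, 0.99 to 2.42). Rfc5 gave 4.59 and 14.1 CPM (1.62, 0.74 to 2.55). The clamp gene Pcna, by contrast, gave 63.2 CPM in WT and 54.0 CPM in the knockout, with a log2 ratio of -0.23 (-0.54 to 0.09), and Rfc2 gave 35.1 and 32.2 CPM (-0.12, -0.54 to 0.29). Genes for subunits of the clamp loader thus had unlike ratios, while the intervals of Pcna and Rfc2 included 0. Under TMM scaling Pcna and Rfc2 stood at 0.09 and 0.19. Relative to genes of like transcript length Pcna stood at -0.53, Rfc2 at 0.57, Rfc4 at 1.30 and Rfc5 at 2.11.

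In nucleotide supply 4 of 5 members were higher. Tyms, the thymidylate synthase gene, gave 54.6 CPM in WT endothelium and 119 CPM in the knockout, 2.19-fold higher (log2 ratio 1.13, 0.87 to 1.39). Dut, which removes dUTP, gave 37.0 and 93.5 CPM (1.34, 1.03 to 1.65). Both were among the members with the narrowest intervals in these cells. The inducible ribonucleotide reductase subunit Rrm2 gave 11.6 CPM in WT and 33.1 CPM in the knockout (1.51, 0.96 to 2.08), while its partner subunit Rrm1 gave 29.2 and 35.1 CPM (0.27, -0.16 to 0.69). Thymidine kinase Tk1 gave 8.64 and 29.4 CPM (1.77, 1.15 to 2.41). The whole group summed to 141 CPM in WT and 310 CPM in the knockout, a log2 ratio of 1.14 (0.98 to 1.30).

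Ccne1 and Hist1h2ap had the largest endothelial ratios of the 36. Hist1h2ap, an H2A gene on the minus strand of chromosome 13 (21833026 to 21833507), gave 19.2 CPM in WT and 85.9 CPM in the knockout (log2 ratio 2.16, 1.77 to 2.57). H2A genes come in near-identical copies and mostly lack poly(A) tails, so how its counts were divided between copies is uncertain. Slbp, which binds the stem-loop of histone mRNAs, gave 62.4 and 82.6 CPM (0.41, 0.13 to 0.68). Ccne1, which with Cdk2 starts S phase, rested on few molecules: 6 UMIs in WT and 23 in the knockout (2.52, 1.18 to 4.10), and its paralogue Ccne2 on 17 and 23 UMIs (1.01, 0.05 to 2.01). Ung, the uracil glycosylase and the only member for uracil removal, gave 14 and 21 UMIs (1.16, 0.12 to 2.25).

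The remaining groups held 1 member that was higher among 11, near the 10.2% of all genes. None was lower, beside 34.8% of all genes. This was the DNA ligase gene Lig1, at 25.7 CPM in WT and 43.5 CPM in the knockout (log2 ratio 0.76, 0.35 to 1.18); the flap nuclease gene Fen1 gave 7.29 and 12.5 CPM (0.78, -0.01 to 1.58). None of the 3 single-strand binding genes passed, with Rpa1 at -0.05, Rpa2 at 0.55 and Rpa3 at 0.35. The genes that keep chromatin and DNA methylation through replication did not pass either, with Uhrf1 at 0.08, Dnmt1 at -0.08 and the remodeller Hells at 0.56 (0.05 to 1.06). Prim1, Pold1 and Pold2 lay at 0.75, -0.19 and 0.22 with intervals that included 0. At this depth a 1.5-fold difference was within many of the intervals. Under TMM scaling the ratios of these 11 members ran from 0.13 for Pold1 to 1.09 for Fen1, with Prim1 at 1.06 and Hells at 0.87. The count of higher members in these groups thus depends on the scaling.

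The share of endothelial cells with a UMI was higher in the knockout for the genes named next. To compare shares, each cell was thinned to 3000 UMIs, which left 479 of 516 WT and 266 of 287 knockout endothelial cells. Tyms was then found in 11.7% (8.95 to 14.9%) of cells in WT and 25.2% (20.1 to 30.9%) in the knockout, against 27.9% and 43.9% without thinning. For 2810417H13Rik the shares were 3.34% (1.92 to 5.37%) and 14.3% (10.3 to 19.1%), against 6.40% and 20.9% without thinning. Dut was found in 7.52% and 18.8%, Hist1h2ap in 1.67% and 9.02%, Rfc4 in 1.25% and 7.14%, and Lig1 in 3.97% and 10.2%. Among cells with a UMI, the median member had 1.06 UMIs per cell in WT and 1.12 in the knockout, near the lowest possible value of 1, so at this depth a difference in level appears mainly as a share of cells. The level in carrying cells stood clear of 1 for 2810417H13Rik, with 1.75 UMIs in WT and 2.58 in the knockout, and for Hist1h2ap, with 1.75 and 2.0.

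**Figure D2:**
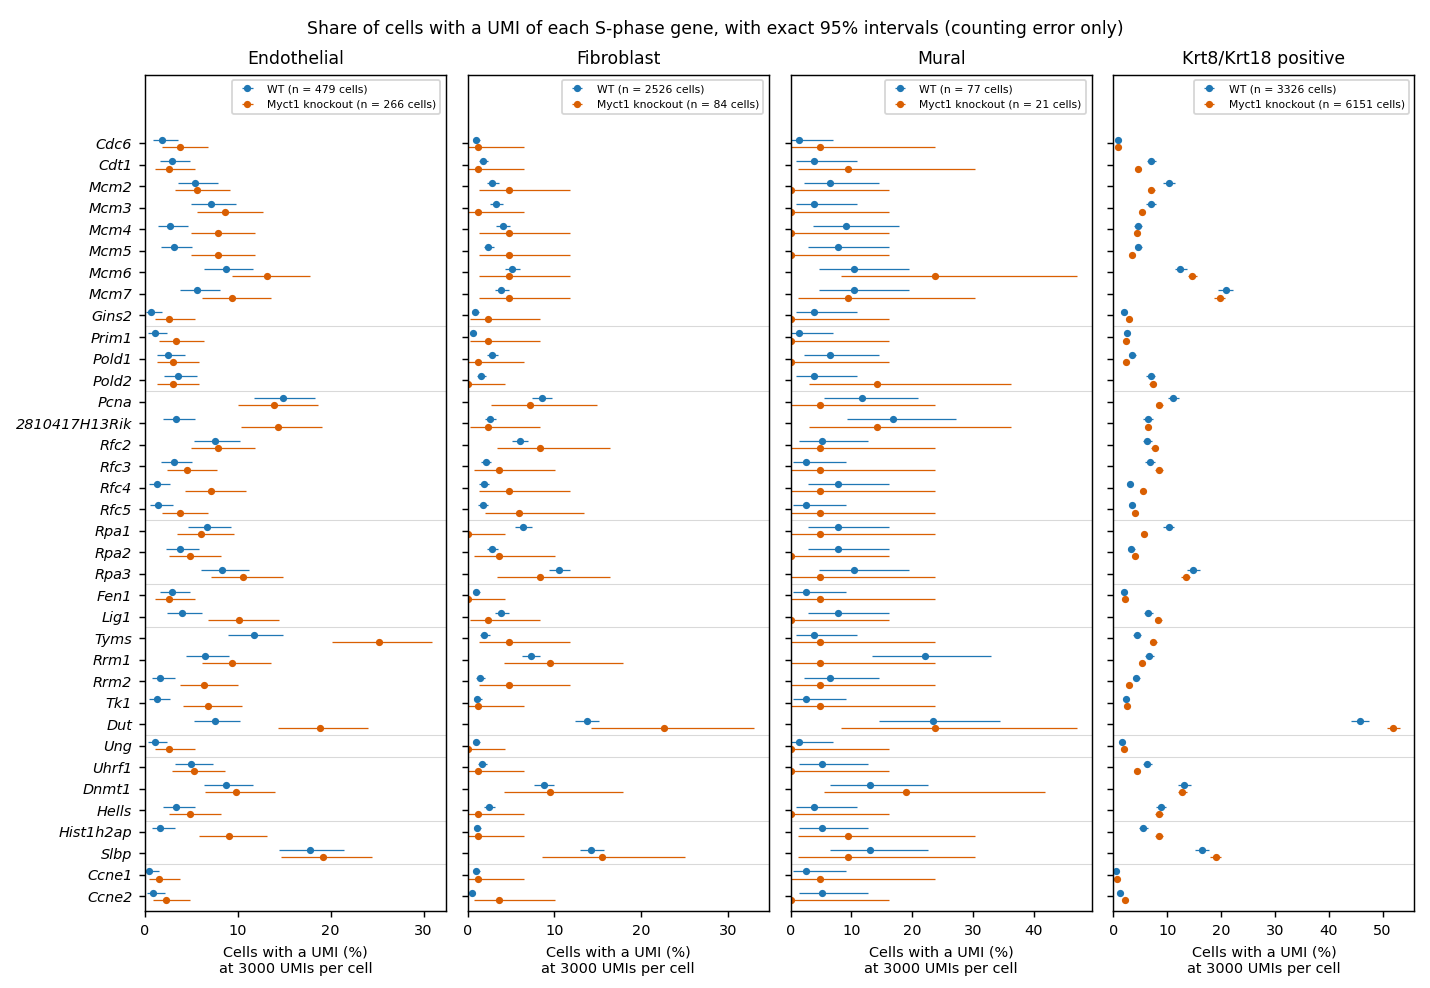
Share of cells with at least 1 UMI of each S-phase gene after thinning to 3000 UMIs per cell, in percent, by class and library, with exact 95% intervals for counting error; the horizontal scales differ between panels. In endothelial cells the knockout points for 2810417H13Rik (14.3%), Tyms (25.2%) and Dut (18.8%) lie to the right of the WT points (3.34%, 11.7% and 7.52%), and the Krt8/Krt18 positive class has the highest share of Dut in both libraries (45.8% and 52.0%).

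A small share of cells held many of the 36 genes at once. At 3000 UMIs the median endothelial cell held a UMI of 1 member in WT and 2 in the knockout (1 in both at 1500 UMIs), and 24.4% and 21.1% of cells held none. Cells with 10 or more of the 36 genes numbered 10 of 479 in WT (2.09%, 1.01 to 3.81%) and 19 of 266 in the knockout (7.14%, 4.35 to 10.9%). They carried 19.8% of all member UMIs in WT endothelium and 39.9% in the knockout. The same share was 3.01% in WT and 2.73% in knockout Krt8/Krt18 positive cells, and 0.911% and 2.38% in fibroblasts, the last from 2 of 84 cells. In the mural class it was 7 of 77 in WT (9.09%, 3.73 to 17.8%) and 0 of 21 in the knockout, whose interval reaches 16.1%.

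**Figure D3:**
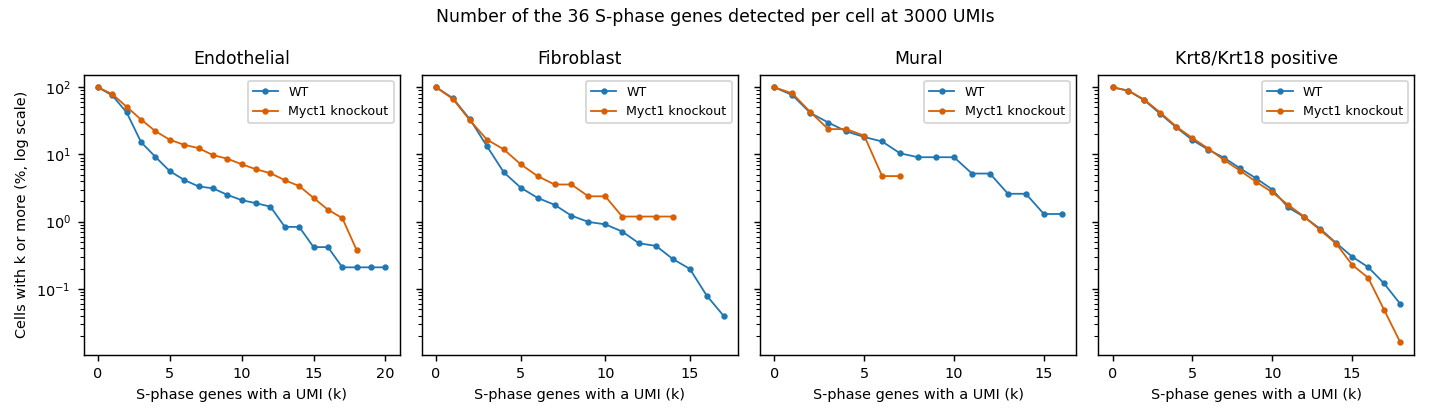
Percentage of cells (log scale) with at least k of the 36 S-phase genes detected at 3000 UMIs per cell, against k, for 4 cell classes and both libraries; lines end at the highest number seen in a cell. The knockout line runs above the WT line in endothelial cells over most of the range (7.14% against 2.09% at 10 genes), and the lines nearly coincide in Krt8/Krt18 positive cells (2.73% against 3.01%).

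A list of 32 mitosis genes that shares no gene with the 36 moved with them. In endothelium 27 of the 32 were higher in the knockout, none was lower, and the median log2 ratio was 1.21. The genes with interval bounds farthest from 0 were the ubiquitin-conjugating enzyme Ube2c (38.1 CPM in WT, 209 CPM in the knockout), the survivin gene Birc5 (31.6 and 162 CPM), the centromeric histone Cenpa (22.7 and 103 CPM) and the cyclin Ccnb1 (11.3 and 50.8 CPM). Endothelial cells with 5 or more mitosis UMIs made up 5.01% in WT (3.24 to 7.36%, 24 cells) and 21.1% in the knockout (16.3 to 26.5%, 56 cells). Such cells were deeper before thinning, with a median of 9029.5 UMIs in WT and 11385.5 in the knockout, against 6554 and 7302.5 in cells with no mitosis UMI. The part of depth in these shares was not tested.

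When endothelial cells were compared within bins of mitosis UMIs, the difference in S-phase genes was smaller than over all cells. In cells with no mitosis UMI the 36 genes gave 1.31 UMIs per cell in WT and 1.60 in the knockout (log2 ratio 0.29, -0.04 to 0.61). With 1 to 4 mitosis UMIs the values were 1.73 and 1.99 (0.20, -0.03 to 0.42), and with 5 or more they were 8.38 and 9.75 (0.22, -0.02 to 0.46). Each ratio was above 0, and each interval included 0. Over all thinned endothelial cells the values were 1.89 and 3.51 UMIs per cell, a log2 ratio of 0.89 (0.76 to 1.03). The median log2 ratio of all genes in these thinned cells was -0.36.

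**Figure D4:**
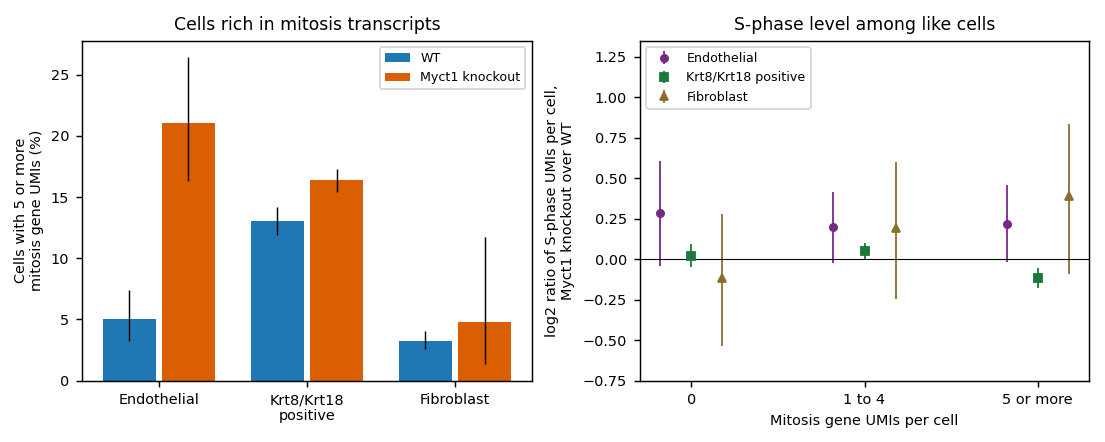
Left, percentage of cells with 5 or more UMIs of the mitosis genes at 3000 UMIs per cell, by class and library; right, log2 ratio (knockout over WT) of S-phase UMIs per cell among cells with 0, 1 to 4 and 5 or more mitosis UMIs; lines are exact 95% intervals for counting error. The endothelial bars stand at 5.01% and 21.1%, and the endothelial ratios within the 3 bins lie at 0.29, 0.20 and 0.22, with intervals that reach below 0.

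Other lists of the cell cycle gave these counts in the same endothelial sums. Of 37 other replication genes 9 were higher and 0 lower (median 0.40), with the helicase factor Cdc45 at 3.24 CPM in WT and 13.3 CPM in the knockout, the checkpoint mediator Clspn at 3.51 and 12.5 CPM, the Cdt1 inhibitor Gmnn at 17.01 and 42.3 CPM, and the fork protection gene Tipin at 25.6 and 58.0 CPM. Of 11 histone and chromatin genes, a list that also holds the microtubule regulator Stmn1, 9 were higher and 0 lower (median 1.20). Among them were H2afz at 601 and 1527 CPM, Stmn1 at 106 and 366 CPM, Hmgn2 at 43.2 and 141 CPM and Hist1h1b at 2.16 and 13.3 CPM. Of the regulators of E2F and G1, 0 of 18 were higher and 3 lower (median -0.47, against 10.2% higher, 34.8% lower and -0.35 for all genes), with the retinoblastoma gene Rb1 at 39.4 CPM in WT and 16.1 CPM in the knockout, E2f5 at 28.1 and 16.5 CPM, and E2f7 at 23.2 and 14.5 CPM. Of 5 inhibitors of cyclin-dependent kinases, Cdkn2d was higher (17.01 and 47.2 CPM) and Cdkn1b lower (66.2 and 39.1 CPM).

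The Krt8/Krt18 positive cells, the largest class, had nearly equal S-phase levels in the 2 libraries. The 36 genes summed to 1191 CPM in WT and 1234 CPM in the knockout (log2 ratio 0.05, 0.04 to 0.06), 4 genes were higher and 2 lower, and 4.93% and 18.4% of all genes were. The median was 0.12 for the members and -0.25 for all genes. With TMM scaling, which moves ratios up by 0.24 here, 6 were higher and 0 lower, beside 1238 and 514 of all genes. Single genes had narrow intervals because their counts ran from 91 to 34869 UMIs per library. These classes share the 2 libraries with the endothelial class, so their ratios are given side by side and not as separate evidence.

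The 4 higher genes in this class were also higher in knockout endothelium. Tyms gave 17.6 CPM in WT and 28.8 CPM in the knockout (log2 ratio 0.71, 0.61 to 0.82), Hist1h2ap 30.3 and 48.6 CPM (0.68, 0.60 to 0.76), Rfc4 13.3 and 20.9 CPM (0.65, 0.53 to 0.77) and Gins2 6.89 and 10.5 CPM (0.61, 0.45 to 0.78). Below them Ccne2 stood at 0.41, Rfc5 at 0.40, Dut at 0.31 (251 and 311 CPM) and 2810417H13Rik at 0.22 (34.3 and 39.8 CPM). The 2 lower genes were Rpa1, the large subunit of the single-strand binding complex, at 38.1 CPM in WT and 22.6 CPM in the knockout (-0.75, -0.84 to -0.67), and Cdt1 at 26.5 and 17.5 CPM (-0.60, -0.70 to -0.51). Uhrf1 (25.6 and 17.3 CPM, -0.56) and Mcm2 (40.2 and 27.8 CPM, -0.53) had the next lowest ratios but did not reach 1.5-fold. Under TMM scaling Rpa1 stood at -0.51 and Cdt1 at -0.36, which is less than 1.5-fold.

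Mcm genes of this class did not move as a block. Mcm6 gave 54.0 CPM in WT and 59.1 CPM in the knockout (log2 ratio 0.13, 0.07 to 0.19), Mcm4 16.9 CPM in both, and Mcm3 29.4 and 23.3 CPM (-0.33, -0.42 to -0.24). Pcna was at 43.2 and 32.8 CPM (-0.40, -0.47 to -0.32). Rrm2 was at 18.4 and 13.2 CPM (-0.47, -0.59 to -0.36), and Tk1 at 11.9 and 10.9 CPM (-0.12, -0.26 to 0.02). The nucleotide supply genes thus had ratios of both signs here: Tyms and Dut above 0, Rrm1 and Rrm2 below. With TMM scaling Mcm3 (-0.09), Pcna (-0.16), Rrm1 (-0.10) and Rrm2 (-0.23) stayed below 0, and Tk1 stood at 0.12.

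Fibroblasts had lower S-phase levels, and the knockout class held 128 cells. The sum was 544 CPM in WT and 652 CPM in the knockout (log2 ratio 0.26, 0.15 to 0.37), with 6 genes higher and 1 lower. Over all genes 14.8% were higher and 17.9% lower, so the count of higher members, 6 of 36, was near the background. The higher genes were Tyms (8.58 CPM in WT, 23.6 CPM in the knockout), Hist1h2ap (9.68 and 26.1 CPM), Prim1 (55 UMIs in WT, 7 in the knockout, from a far smaller sum), Gins2 (5.35 and 11.8 CPM), Dut (58.7 and 99.3 CPM) and Rrm2 (11.4 and 18.5 CPM). Rpa1 was lower, at 21.7 and 10.1 CPM. 2810417H13Rik, with 18.9 and 26.1 CPM (0.46, -0.11 to 0.99), and Tk1, with 5.16 and 5.05 CPM (-0.03, -1.50 to 1.13), did not pass.

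The other named members had these levels in fibroblasts, none of them past the count rule. Rfc4 stood at 6.93 CPM in WT and 9.26 CPM in the knockout, Rfc5 at 6.10 and 5.89 CPM, and Rfc2 at 21.3 and 30.3 CPM. Pcna stood at 31.1 and 21.9 CPM, Mcm2 at 13.1 and 14.3 CPM, Cdt1 at 6.81 and 10.9 CPM, and Uhrf1 at 8.42 and 9.26 CPM. Ccne1 gave 95 UMIs in WT and 5 in the knockout, Ccne2 87 and 9, and Ung 88 and 4, in sums of 25408305 and 1187881 UMIs. Most members had under 40 UMIs in the knockout sum, and the intervals were wide, as from -1.95 to 1.37 for Ung.

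Mural cells were few, 91 in WT and 23 in the knockout, and their S-phase sum was lower in the knockout. The sum was 1631 CPM in WT and 1111 CPM in the knockout (log2 ratio -0.55, -0.77 to -0.34). At 3000 UMIs per cell, the 7 of 77 WT cells with 10 or more of the genes carried 48.8% of the WT member UMIs. The knockout had 0 such cells among 21. Of 24 members with at least 20 UMIs over both sums, 0 were higher and 4 lower, when 6.91% of all genes were higher and 18.2% lower, so the count of lower members was near the background. The lower genes were Pcna (61 UMIs in WT, 6 in the knockout), Mcm3 (31 and 3), Uhrf1 (37 and 2) and Ccne2 (20 and 0). With TMM scaling the sum stood at -0.29, beside 677 of all genes higher and 573 lower. No UMI of Ccne2 in 23 knockout cells allows a share of up to 13.04% of cells with one by the limit of 3 counts, and up to 14.8% by the exact interval. Of the mitosis genes, 10 of 25 were higher and 0 lower. The summed level of Krt8 and Krt18 in these 23 cells was 10.3% of that in Krt8/Krt18 positive cells, and 0.424% in WT mural cells; its part in the result was not tested.

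The levels of the other named members in mural cells were as follows, none past the count rule. Tyms gave 20 UMIs in WT and 11 in the knockout, Dut 85 and 19, Rrm2 37 and 6, and Tk1 22 and 6. 2810417H13Rik gave 93 and 21 UMIs (149 and 106 CPM), Hist1h2ap 45 and 15, Mcm2 23 and 3, Cdt1 21 and 5, Rpa1 34 and 7, and Rfc2 25 and 8. Under 20 UMIs in all were Gins2 (7 and 3), Rfc4 (13 and 6), Rfc5 (7 and 4), Ccne1 (10 and 1) and Ung (6 and 0).

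Set against the Krt8/Krt18 positive cells of the same library, the endothelial S-phase genes had a median ratio below 0 in WT and above 0 in the knockout. In WT, 2 of the 36 genes were higher in endothelium and 13 lower, when 33.7% of all genes were higher and 22.1% lower. The median log2 ratio was -0.47, and that of all genes 0.16. In the knockout 12 were higher, near the background of 28.3%, and 5 lower, with a background of 21.8%. The median was 0.34, beside 0.06 for all genes. Tyms and Cdc6 were higher in endothelium in both libraries, Tyms by a log2 ratio of 1.63 in WT and 2.05 in the knockout and Cdc6 by 0.95 and 1.01. Dut was lower in both (-2.77 and -1.73), as were Mcm7, Cdt1, Pold2 and Rfc3. Rrm2 and Hist1h2ap were lower in WT endothelium (both -0.66) and higher in knockout endothelium (1.32 and 0.82). In the same comparison WT fibroblasts had 1 member higher and 25 lower (background 29.4% and 29.7%), and knockout fibroblasts had 1 higher and 18 lower (28.0% and 19.4%). WT mural cells had 16 higher and 1 lower (30.9% and 15.1%), and knockout mural cells 2 and 1 (13.4% and 5.04%).

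Free RNA from broken cells can put transcripts of the abundant Krt8/Krt18 positive cells into other droplets. Of 8 tumour genes that no gate used, 5 were at 0 in the endothelial class of each library. In WT the genes at 0 had low levels in Krt8/Krt18 positive cells too, from 0.61 CPM (Slpi) to 8.31 CPM (Krt19). In the knockout Krt7, Krt19, Lcn2 and Epcam stood at 0.48, 0.36, 0.18 and 0.31 CPM there. Levels this low leave few UMIs to find, so the zeros do not measure free RNA. The sum of the 8 genes, mostly the osteopontin gene Spp1, was 1.61% of its Krt8/Krt18 positive level in WT endothelium and 6.85% in knockout endothelium. All 36 S-phase genes stood above that percentage in both libraries, the lowest being Dut with 14.7% and 30.1%. Among the 8 tumour genes the highest single percentage in endothelium was that of Lcn2 in WT, 33.3% of a level of 4.05 CPM. The endothelial level of 2810417H13Rik in the knockout, 136 CPM, compares with 2.73 CPM for its Krt8/Krt18 positive level times 6.85%. Fibroblasts held Spp1 at 1476 CPM in WT and 5585 CPM in the knockout, so these percentages do not measure transcripts of Krt8/Krt18 positive cells alone. The part of free RNA in the endothelial levels was not tested. In fibroblasts of both libraries Spp1, Slpi, Lcn2 and Krt7 exceeded their Krt8/Krt18 positive levels, as did Krt19 and Epcam in the knockout, so no such value was read there.

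The lists named above gave the following counts in the other classes, where 4.93% of all genes were higher and 18.4% lower in Krt8/Krt18 positive cells and 14.8% and 17.9% in fibroblasts. In Krt8/Krt18 positive cells 3 of 32 mitosis genes were higher (Ube2c at 45.6 CPM in WT and 70.6 CPM in the knockout, Birc5 at 46.3 and 69.7 CPM, Aurka at 5.82 and 9.03 CPM) and 0 lower. The other replication genes had 2 of 37 higher, the dCTP-cleaving enzyme Dctpp1 (56.7 and 87.5 CPM) and Gins1 (3.71 and 5.76 CPM), and 0 lower. Of the E2F and G1 regulators 3 of 18 were lower, Ccnd2 (3.98 and 1.82 CPM), Rb1 (20.5 and 11.9 CPM) and Rbl2 (10.2 and 6.42 CPM), and 0 higher. The 2 of 37 higher and the 3 of 18 lower were near the shares of all genes. The 0 of 37 other replication genes that were lower stood below the 18.4% of all genes. Cdkn2d was higher and Cdkn1b lower, as in endothelium. Fibroblasts had 11 of 32 mitosis genes higher and 0 lower, led by Ccnb1 (8.11 and 46.3 CPM), Ube2c (14.2 and 53.0 CPM), Cenpf (9.96 and 28.6 CPM) and Prc1 (9.80 and 26.9 CPM).

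Within the Krt8/Krt18 positive cells, which gave the most cells, the 36 genes differed in how their shares of cells changed with mitosis UMIs. In WT, 1.07% of cells with no mitosis UMI held 2810417H13Rik, 2.93% of those with 1 to 4, and 34.2% of those with 5 or more (29.7 to 38.9%). In the knockout the shares were 0.641%, 2.93% and 28.5%. Rrm2 went from 1.16% to 18.9% across the outer bins in WT and from 0.694% to 11.03% in the knockout, and Tk1 from 0.804% to 10.9% and from 0.374% to 9.54%. Cdc6, rare throughout, went from 0.0893% (0.0023 to 0.50%) to 3.70% (2.13 to 5.93%) in WT and from 0.107% to 2.98% in the knockout. In both libraries the shares of these 4 genes differed by more than 10-fold between the outer bins. For Rrm2, Tk1 and Cdc6 the WT intervals also reach smaller differences.

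Other genes had smaller ratios of shares between the outer bins. That ratio is bounded for a gene already found in many cells of the lowest bin, such as Dut. Dut was held by 41.1% of WT cells with no mitosis UMI and 63.7% of those with 5 or more, and by 46.6% and 66.1% in the knockout. Slbp went from 14.3% to 21.2% and from 17.1% to 25.5%, Pold2 from 5.0% to 9.93% and from 6.89% to 10.5%, and Cdt1 from 5.89% to 12.5% and from 3.69% to 7.45%. Ung had 1.07%, 1.86% and 2.08% over the 3 bins in WT and 0.908%, 2.66% and 1.59% in the knockout, so its highest share in the knockout was in the middle bin. The Mcm genes differed among themselves, with Mcm5 at 1.52% and 15.0% in the outer bins in WT, and Mcm7 at 17.1% and 34.4%. The bins hold 1120, 1773 and 433 WT cells and 1872, 3273 and 1006 knockout cells, whose median depth before thinning was 18823 and 20292 UMIs in the highest bin and 16111 and 16039.5 in the lowest.

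**Figure D5:**
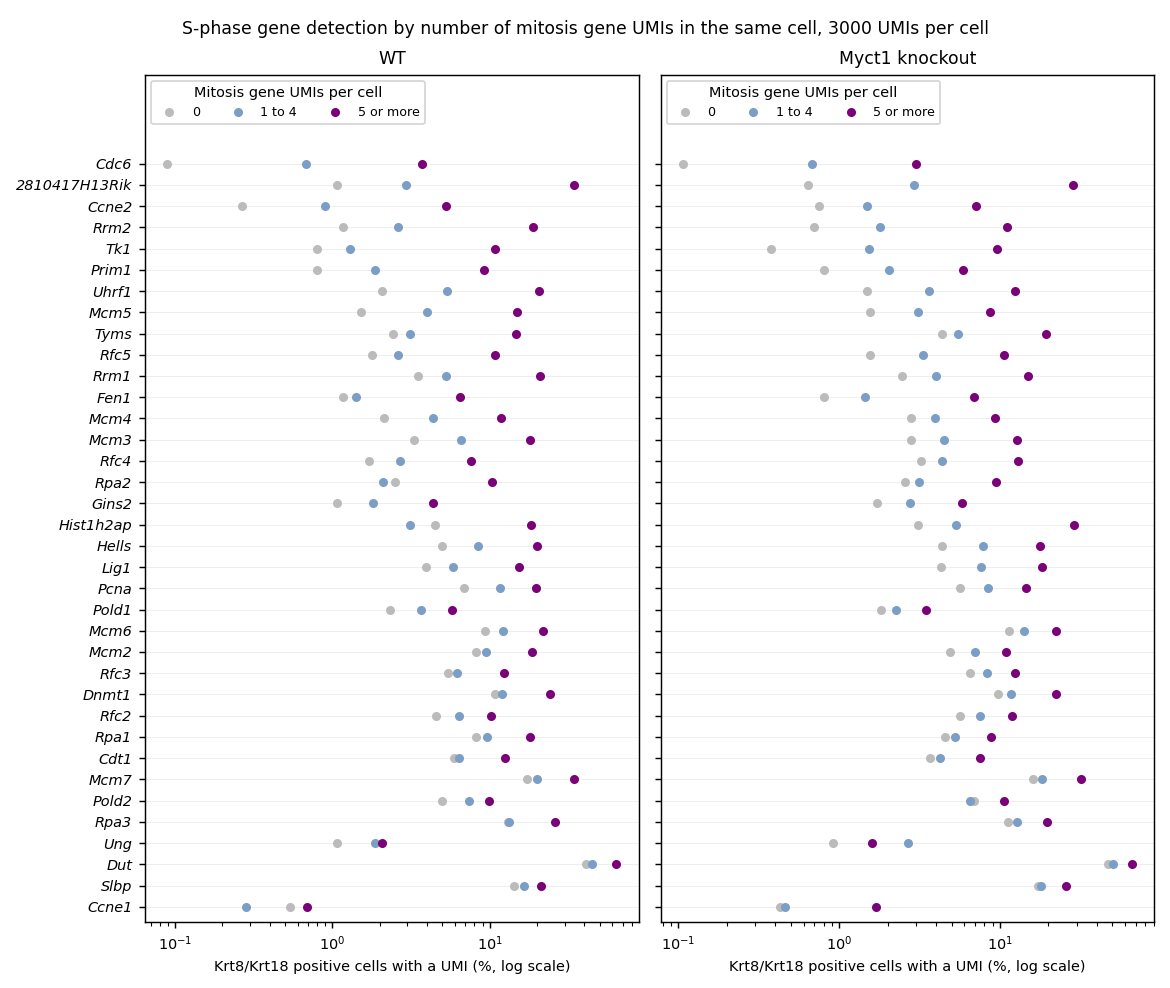
Percentage of Krt8/Krt18 positive cells (log scale) with a UMI of each S-phase gene at 3000 UMIs per cell, among cells with 0, 1 to 4 and 5 or more UMIs of the mitosis genes, in both libraries; genes are ordered by the WT ratio of the outer bins. Points for 2810417H13Rik are far apart (1.07% to 34.2% in WT) and those for Dut close together (41.1% to 63.7%).

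The sets with and without E2F letters had these ratios. In endothelium the median log2 ratio was 0.34 over the 13 members with the letters, from -0.50 to 2.04, and 0.78 over the 19 without, from -0.29 to 2.52. In Krt8/Krt18 positive cells the medians were -0.15 and 0.18, in fibroblasts 0.25 and 0.17, and in mural cells, genes with under 20 UMIs included, -0.66 and -0.62. The ranges overlapped in each class, and the order of the medians was not the same in all. Of the 13 with the letters, 2810417H13Rik, Mcm7 and Lig1 were higher in knockout endothelium. Tyms, Rrm2, Tk1, Dut, Rfc4, Rfc5, Ung, Hist1h2ap and Ccne1, also higher there, held none of the 3 forms searched within these windows.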

How the data were processed

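Single-cell 3′ libraries of dissociated tumours were analysed, 1 per genotype and 4 pooled mice each. For each library the authors deposited a table of whole UMI counts, not normalized; the submitters' processing notes name Cell Ranger 2.1.1 and mm10 but no gene annotation. Each listed gene has 4 or more UMIs in some barcode. The members, lists and thresholds were chosen with earlier results of these data known.

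Barcodes with under 200 genes or over 10% mitochondrial counts were left out (1106 and 1654 in WT, 1955 and 523 in the knockout), and then doublets scoring above 0.3 by a nearest-neighbour score against simulated pairs (234 WT, 153 knockout; 2.88% and 1.86%). Classes came from marker counts per 10000: endothelial and mural at least 20, fibroblast at least 100, each with 6 or more markers, and Krt8/Krt18 at least 4 with both genes. Immune (20, 3 markers) and lymphatic (10, 2 markers) cells and cells in several classes were left out, except that mural with fibroblast counted as mural. Gate limits were set after seeing marker distributions, not member genes.

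Counts were summed per class and library and given as CPM over shared genes. Ratios carry exact conditional binomial intervals, levels Poisson and shares Clopper-Pearson intervals; the limit for a share of 0 is 3 counts. Genes with under 20 UMIs over both sums were not counted. Alternatives were TMM scaling, ratios relative to 200 genes of like transcript length (99.6% of shared genes and all 36 members had a length), no minimum, no doublet removal, a 5% mitochondrial limit, gates at other strictness, thinning to 3000 or 1500 UMIs, and cells without mitosis transcripts. The ratio and thinning steps were tested on simulated data. Members named with values in each class were the 8 with the highest and the 4 with the lowest interval bound in endothelial or Krt8/Krt18 positive cells, plus the only member of a role; of each other list up to 4 genes were named by bound in a class, with some lists of the smaller classes left out. The result of 1 list is not reported here. The tools were matplotlib 3.10.9, scikit-learn 1.9.0, pandas 2.3.3, scipy 1.17.1, numpy 2.4.6 and Python 3.11.15.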

Additional observations from a re-analysis of the deposited data

Results flagged for a closer look

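Members past the 1.5-fold rule in one class, with an interval on the other side of 0 in another, had opposite directions in these classes. Rrm2 had a log2 ratio of 1.51 in endothelial cells and 0.70 in fibroblasts, against -0.47 in Krt8/Krt18 positive cells. Mcm7 had 0.66 in endothelial cells against -0.12 in Krt8/Krt18 positive cells, where TMM scaling gave 0.12 and genes of like length 0.02. Ccne2 had 1.01 in endothelial cells and 0.41 in Krt8/Krt18 positive cells, against 20 UMIs in WT and 0 in the knockout in mural cells, where the upper bound of the interval was -0.64. With 1 library per genotype these differences between classes were not tested.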

How the results depend on the processing

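No paired analysis was possible because each genotype had 1 library. Stricter and looser gates multiply or divide the marker limits by 2. The alternatives concern the count of higher and lower members and the median and summed log2 ratio. With no minimum of UMIs none of these moved by more than the rule allows. In endothelial cells, TMM scaling and genes of like length each gave 24 higher, with sums of 1.00 and 1.07; the 5% mitochondrial limit gave a sum of 0.82 and thinning 0.89. Without cells holding a UMI of the 5 mitosis genes (183 knockout and 429 WT cells left), 1 endothelial member was higher and 2 lower. The median was then -0.033, beside -0.38 for all genes, and the sum -0.010. Mcm7 (-0.59), Lig1 (-0.10), Rfc5 (-1.33) and Ccne2 (-0.45) then had ratios below 0, but none of these passed the count rule as lower. In Krt8/Krt18 positive cells, lower members numbered 0 with TMM scaling (median 0.36, sum 0.29), 1 with genes of like length (median 0.27, sum 0.34), 1 with the 5% limit (sum 0.070) and 5 without mitosis-positive cells (median -0.049, sum 0.026); stricter gates gave 2 higher and a sum of 0.025. In fibroblasts, lower members numbered 3 with genes of like length (sum 0.37), 0 with no doublet removal and 0 with looser gates (12 higher, sum 0.49); thinning gave 2 higher, and leaving out mitosis-positive cells gave 1 higher, a median of -0.16 and a sum of 0.064. In mural cells the sum was -0.29 with TMM scaling, -0.22 with genes of like length, -0.83 with the 5% limit, -0.79 with stricter gates (1 higher) and -0.96 with looser gates (8 lower); thinning gave 0 lower, and leaving out mitosis-positive cells left 1 member with enough UMIs, with 0 lower, a median of 0.18 and a sum of 0.29. Fewer cells and UMIs enter the thinned sums and those without mitosis-positive cells; the cause of the other changes was not tested. The median number of members per cell stayed within the quartiles at 1500 UMIs and with stricter gates, a wide allowance for such small numbers. At 1500 UMIs it fell from 2 to 1 in Krt8/Krt18 positive cells of both libraries and in knockout endothelium. The median of WT endothelium was 1 at both depths, and that of WT fibroblasts fell from 1 to 0. Shares of cells depended on depth: at 1500 UMIs 178 of 288 shares, and without thinning 206 of 288, left the interval at 3000 UMIs. Mural and knockout fibroblast values rest on the fewest UMIs.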
